A study of Mus musculus with 6 samples.

Results

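The genes of motile cilia and of the ependyma, the ciliated epithelium that lines the brain ventricles, were followed in RNA-seq libraries of microglia from lupus-prone and control mice. The members were chosen by symbol: 38 mouse genes were looked up by Ensembl identifier among the 55401 genes of the count table, and all 38 were found. They are 4 regulators of the multiciliated cell programme (Foxj1, Rfx2, Rfx3 and Mcidas), 11 axonemal dynein heavy chains, 6 genes of the ruler and the nexin-dynein regulatory complex, 3 tektins, 8 genes of the radial spokes and central apparatus, 5 other cilia and flagella associated genes, and Tmem212, a transcript known from ependymal cells.

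MRL/lpr mice carry lpr, a mutation of the cell death receptor gene Fas, and develop a lupus-like disease. MRL/mpj mice share the MRL background without that mutation and served as controls. Both groups were untreated and 6 weeks old, and each gave 3 libraries from brain. The study's methods describe female mice, collagenase digestion, a Percoll gradient and magnetic selection of CD11b+ cells, CD11b being an integrin of myeloid cells that include microglia. The study counts as many mice per strain as there are libraries and mentions no pooling, but the labels do not tie a library to a mouse. The p-values measure the spread between these libraries. Total counts ran from 45481609 to 49846634 per library. The mitochondrial share of counts was 3.06% to 3.49% in MRL/lpr and 5.84% to 6.38% in MRL/mpj. In MRL/lpr replicate 3, CT010467.1 made up 6.38% of all counts.

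A motile cilium beats because dynein arms on its outer microtubule doublets pull neighbouring doublets past each other. Radial spokes and the central apparatus time that pull, the nexin-dynein regulatory complex links the doublets and limits their sliding, and ruler proteins set where these parts attach. Foxj1 and the Rfx factors switch on the genes of the axoneme, and in the brain the cells that use the programme are mainly ependymal cells and choroid plexus epithelium, while microglia are not ciliated in this way.

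The promoters of the members are shown first, because 3 of the regulators are transcription factors whose DNA motifs are known and lie upstream of many axonemal genes. The windows came from RefSeq on GRCm38.p6 and cover 250 bases before to 50 after each annotated start. There were 37 windows for 32 members, and none for Cfap54, Cfap65, Dnah3, Foxj1, Rsph1 and Rsph4a. The inverted-repeat X-box, the motif of Rfx factors (GTNNCCNNGGNNAC, searched on both strands), was present in 5 of the 37 windows, or 13.5%, against 1.88% of all 32851 windows. The members with this motif are listed here with 30 bases around it, 5′ to 3′ on the strand of the gene, with the motif in capitals.
Cfap126, chr1:171122955-171122984, plus strand: tgttcaagGTATCCATGGCTACttctcagt
Spag6l, chr16:16829314-16829343, minus strand: tccggttgctgtcgGTTGCCCTGGAGACgc
Tekt4, chr17:25471422-25471451, plus strand: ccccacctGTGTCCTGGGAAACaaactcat
Rsph9, chr17:46144185-46144214, minus strand: ggctcaggGTCTCCATGGAGACagcttcta
Rfx2, chr17:56830959-56830988, minus strand: ccgccatagagactGTAGCCGTGGAGACtg

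The first base of the motif lay at -82 from the start of its window in Cfap126, at -160 in Tekt4, at -6 in Rsph9, and at 35 in both Spag6l and Rfx2, downstream of the start. Cfap126 has 3 windows and the motif is in 1 of them, whose start lies 9.13 kb inside the GENCODE gene, and the start of the Tekt4 window lies 17.0 kb inside its gene. The log2 fold changes of these 5 genes, MRL/lpr against MRL/mpj, were -0.56, -0.67, 0.07, -1.03 and -0.07 in that order, and Spag6l alone passed the test described below. A single arm of the X-box, GTTGCC, which overlaps the full motif where its first bases match, was found in 17 windows of 16 members (45.9%) and in 12.5% of all windows. The core GTAAACA of forkhead factors, the family of Foxj1, was found in 1 window, that of Cfap43 (2.70%, against 3.65% of all windows). These matches are descriptions of sequence and were not measured as bound sites.

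Drc7, the member with the largest difference between the strains, had none of the 3 motifs in its window. Spag16 had 2 arms in inverted order, the first bases of which lay at -111 and -103. The 250 bases before the start of these genes are given with any X-box arm in capitals.
Drc7, chr8:95054853-95055102, plus strand: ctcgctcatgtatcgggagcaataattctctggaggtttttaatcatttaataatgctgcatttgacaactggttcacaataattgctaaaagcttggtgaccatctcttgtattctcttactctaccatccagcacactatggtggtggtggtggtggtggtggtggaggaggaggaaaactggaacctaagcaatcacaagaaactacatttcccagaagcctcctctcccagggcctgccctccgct
Spag16, chr1:69826720-69826969, plus strand: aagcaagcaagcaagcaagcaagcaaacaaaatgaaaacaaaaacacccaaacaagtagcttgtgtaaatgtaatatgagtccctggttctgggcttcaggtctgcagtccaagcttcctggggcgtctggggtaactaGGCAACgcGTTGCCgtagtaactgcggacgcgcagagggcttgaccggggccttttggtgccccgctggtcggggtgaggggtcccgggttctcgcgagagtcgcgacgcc

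The members were present at low levels. On the length-corrected scale deposited by the authors, FPKM (fragments per kilobase of gene, scaled to library depth), 11 members had a mean over the 6 libraries of at least 1 and 27 were below 1. Rsph1, a head protein of the radial spoke, had the highest mean level at 5.85 FPKM. Tmem212 followed at 3.24 FPKM, Foxj1 at 3.01 FPKM, Ccdc153 at 2.25 FPKM and Drc7 at 2.06 FPKM. The members' median of 0.458 FPKM compares with 382 FPKM for 15 microglial markers (Csf1r, Tmem119 and others). The labelled cell type was thus present at high level and the ciliary genes were minor transcripts beside it. Some genes of other cells were abundant as well. Mean FPKM in MRL/lpr and MRL/mpj were 218 and 739 for Ttr of the choroid plexus and 144 and 162 for Cldn5 of the endothelium. In bulk RNA, fewer cells of a type and less RNA per cell cannot be told apart. Mcidas, a coactivator that starts the multiciliated programme, had 0 counts in 5 libraries and 4 counts in MRL/mpj replicate 3, and it was too low to be tested. Counts of 4 were over-represented in every library, so 4 counts may stand for 1 read pair here and in the low counts given below.

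**Figure D1:**
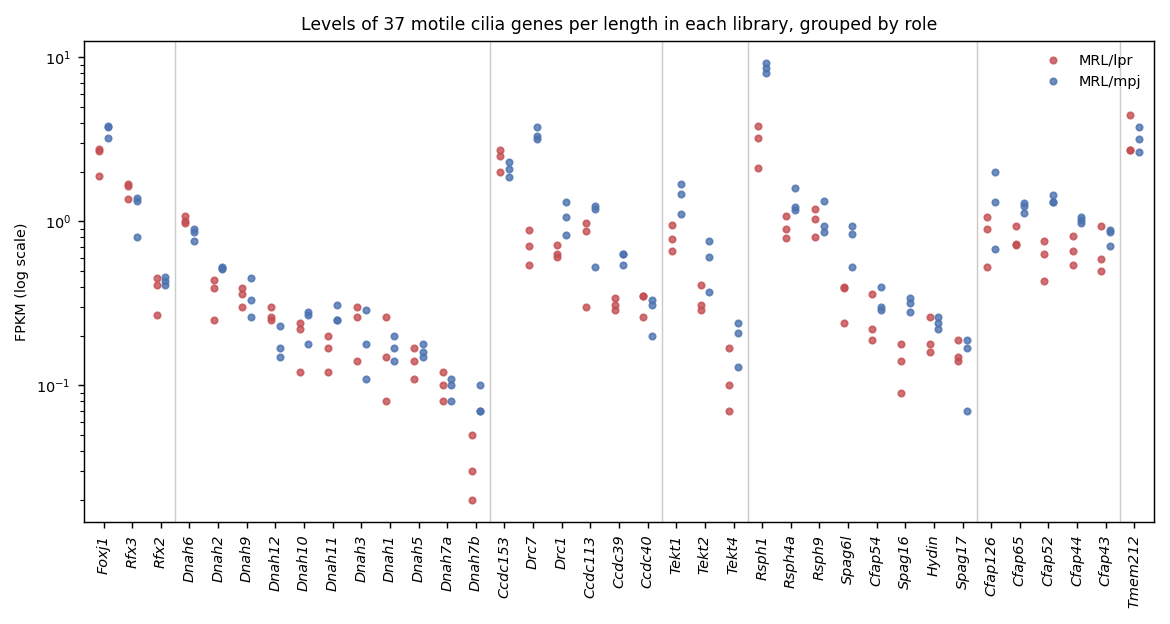
Levels of the 37 tested members in FPKM (log scale) in each library, with MRL/lpr in red and MRL/mpj in blue, grouped by role and separated by grey lines. The 3 MRL/lpr points of Drc7 and of Rsph1 lie well below the 3 MRL/mpj points, while most dynein heavy chains overlap or lie close together.

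Whether the strains differed in these genes was tested on the counts with the quasi-likelihood test of edgeR, and p-values were adjusted by Benjamini-Hochberg over all 19554 genes tested. Levels below are CPM, counts scaled to library size with TMM factors, unless named otherwise, and a log2 fold change below 0 means a lower level in MRL/lpr. Of the 37 members tested, 5 were lower in MRL/lpr at an adjusted p under 0.05 (Drc7, Rsph1, Cfap52, Spag6l and Ccdc39) and 0 were higher. Among all genes tested, 9.06% were lower and 11.1% were higher by the same rule, and among the 10278 genes within the members' range of mean CPM, 9.06% were lower and 8.52% were higher. The 5 members make up 13.5% of those tested, which by this count alone is close to that background. The lower members numbered 2 when MRL/lpr replicate 2, MRL/mpj replicate 1 or MRL/mpj replicate 3 was left out. Without adjustment, 12 of the 37 members were lower and 3 higher at an edgeR p under 0.05, beside 15.5% and 16.3% of all genes. The lower share was above that of all genes and the higher share below it. The members were chosen with earlier results of these data known. No test over the members as a set was made. DESeq2 on the same counts gave 7 lower members and 1 higher member, Dnah6, against 11.0% and 12.9% of all genes.

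With the study's additional minimum of 1 for the absolute log2 fold change, 4 of the 37 members were called lower (all of the 5 but Ccdc39) and 0 higher. Among all genes, 3.66% were called lower and 4.67% higher. Of the 37 members, 25 had a log2 fold change below 0 and 12 above 0, with a median of -0.33 beside -0.01 for all genes. Scaling by library size alone moved the median of all genes to -0.13 and that of the members to -0.46, so that the members' median stayed below it by a like amount. The members' median was -0.14 when MRL/lpr replicate 1 was left out and -0.13 when MRL/mpj replicate 3 was. In 14 of the 37 members the MRL/lpr libraries all lay below the MRL/mpj libraries, against 19.4% of all genes tested. In 3 (Dnah6, Rfx3 and Dnah12) all lay above, against 19.6%. For 20 members the 95% confidence interval excluded both a halving and a doubling, and for 22 it held 0.

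**Figure D2:**
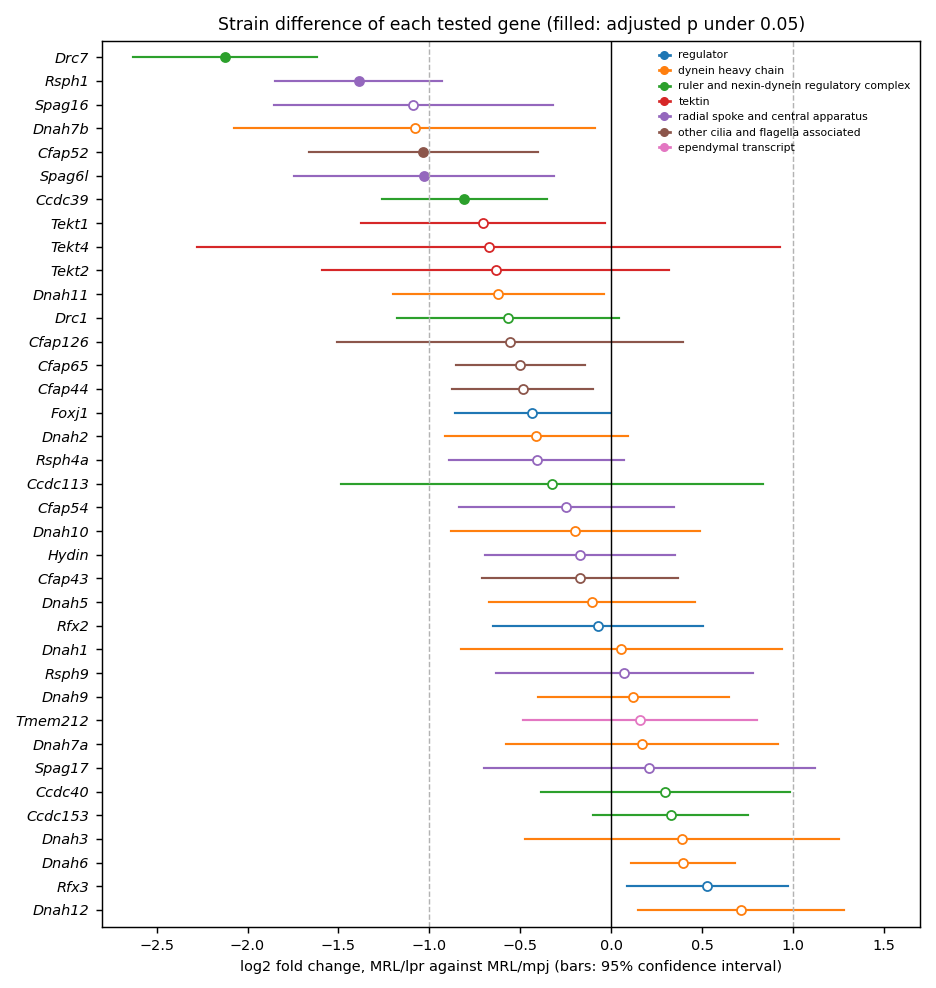
Log2 fold change of each tested member, MRL/lpr against MRL/mpj, with its 95% confidence interval, coloured by role (filled points: adjusted p under 0.05, dashed lines: -1 and 1). The 5 filled points all lie below 0, from -2.12 for Drc7 to -0.81 for Ccdc39, and the dynein heavy chains lie on both sides of 0.

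Of the regulators, 0 of the 3 tested passed in edgeR or DESeq2, and without adjustment 1 was lower (Foxj1) and 1 higher (Rfx3) at a p under 0.05 in edgeR. Foxj1 (chr11:116330704-116335399), the forkhead factor that defines cells with motile cilia, had 8.08, 5.67 and 8.76 CPM in the MRL/lpr libraries and 10.6, 10.8 and 9.03 CPM in the MRL/mpj libraries. All 3 MRL/lpr values lay below the lowest MRL/mpj value, and the log2 fold change was -0.43 ± 0.19 (SE, n = 3 per strain, edgeR adjusted p = 0.151). Rfx3 (chr19:27761721-28011166), which acts in primary and motile cilia alike, had 21.5, 20.7 and 18.3 CPM in MRL/lpr and 16.6, 15.8 and 9.53 CPM in MRL/mpj. Its libraries did not overlap in the opposite direction, at a log2 fold change of 0.53 ± 0.20 (SE, edgeR adjusted p = 0.0956). Rfx2, a partner factor active in multiciliated cells, had 3.42, 2.32 and 4.02 CPM in MRL/lpr and 3.21, 3.66 and 3.38 CPM in MRL/mpj. The Rfx2 ranges overlapped, and the interval of its log2 fold change ran from -0.65 to 0.51.

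The 11 dynein heavy chains are the motors of the axoneme. In edgeR 0 of them passed the test, and without adjustment 2 were lower and 2 higher at a p under 0.05. DESeq2 called 1 of them higher, Dnah6. Of the 11 chains, 5 had a log2 fold change below 0 and 6 above 0, and their median was 0.06. Dnah5, Dnah9 and Dnah11 belong to the outer arms, which set beat frequency, and their log2 fold changes were -0.11, 0.12 and -0.62, with adjusted p-values of 0.828, 0.783 and 0.130 (edgeR). Dnah11 was the only one of the outer arm chains whose strains did not overlap, with CPM of 3.28, 1.95 and 3.06 in MRL/lpr and 3.97, 3.96 and 4.82 in MRL/mpj.

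Dnah2 and Dnah10, chains of the double-headed inner arm that shapes the waveform, had log2 fold changes of -0.41 and -0.20, and the strains of Dnah2 did not overlap. Dnah1, Dnah3, Dnah6, Dnah7a, Dnah7b and Dnah12 are chains of the single-headed inner arms, and they held both the highest and the lowest values of the family. Dnah12 had 3.49, 4.19 and 3.83 CPM in MRL/lpr and 1.89, 2.18 and 2.94 CPM in MRL/mpj, with a log2 fold change of 0.71 ± 0.25 (SE, edgeR adjusted p = 0.0789). Dnah6 had 14.8, 15.2 and 17.2 CPM in MRL/lpr and 10.8, 12.8 and 12.2 CPM in MRL/mpj, with a log2 fold change of 0.40 ± 0.13 (SE, edgeR adjusted p = 0.0563). Both genes were higher in each MRL/lpr library than in any MRL/mpj library. Dnah1 and Dnah3 had overlapping strains and log2 fold changes of 0.06 and 0.39, and 10.5% of the exonic bases of Dnah3 overlap Lyrm1 on the opposite strand.

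Dnah7a and Dnah7b are near copies on chromosome 1 and their counts are uncertain. Of the 50-base words of the Dnah7a transcripts, 38.62% also occur in another gene, 29.4% in Dnah7b alone. For Dnah7b the share was 29.95%, with 23.6% in Dnah7c alone. Dnah7b had 0.447, 0.680 and 1.22 CPM in MRL/lpr and 1.44, 1.46 and 2.06 CPM in MRL/mpj, at a log2 fold change of -1.08 ± 0.44 (SE, edgeR adjusted p = 0.124). Dnah7a had overlapping values of 1.79, 1.13 and 1.56 CPM in MRL/lpr and 1.48, 1.34 and 1.15 CPM in MRL/mpj. Summed over the family, the heavy chains in MRL/lpr stood at 104% of the MRL/mpj level in CPM.

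The ruler and nexin-dynein regulatory complex genes held the largest difference among the members. Drc7 (chr8:95055103-95078141) encodes a subunit of the regulatory complex. It had 1.87, 2.46 and 3.23 CPM in MRL/lpr, from 88, 116 and 135 counts, and 12.1, 10.6 and 10.2 CPM in MRL/mpj, from 624, 530 and 531 counts. Each MRL/lpr library lay far below every MRL/mpj library. Drc7 was 4.36-fold lower in MRL/lpr, at a log2 fold change of -2.12 ± 0.22 (SE, n = 3 per strain, edgeR adjusted p = 0.000158), and the interval ran from -2.63 to -1.62. It passed in all 14 alternative analyses, and its exons overlap no other annotated gene.

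Drc1, another subunit of that complex, had overlapping strains and a log2 fold change of -0.57 ± 0.27 (SE, edgeR adjusted p = 0.189). Ccdc39 (chr3:33812362-33844310) is one of the paired ruler proteins that fix the axonemal repeat. Ccdc39 had 2.96, 2.70 and 2.68 CPM in MRL/lpr and 5.08, 4.42 and 5.09 CPM in MRL/mpj, without overlap, and was 1.75-fold lower in MRL/lpr (log2 fold change -0.81 ± 0.20, SE, edgeR adjusted p = 0.0196). This call was lost without MRL/lpr replicate 2 (adjusted p = 0.0569), without MRL/mpj replicate 1 (0.0709) and without MRL/mpj replicate 3 (0.0705), and 16.9% of its exonic bases overlap Ttc14 on the opposite strand.

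Ccdc40, the partner of Ccdc39 in the ruler, did not pass the test. It had 1.83, 2.46 and 2.56 CPM in MRL/lpr and 1.34, 2.04 and 2.19 CPM in MRL/mpj, with overlap and a log2 fold change of 0.30 ± 0.30 (SE, edgeR adjusted p = 0.568). The intervals of the partners, -1.26 to -0.35 for Ccdc39 and -0.39 to 0.98 for Ccdc40, overlapped slightly, and the difference between these genes was not tested. Ccdc153, which is known as a marker of ependymal cells, had 5.80 ± 0.70 CPM in MRL/lpr and 4.62 ± 0.48 CPM in MRL/mpj (mean ± SD, n = 3 per strain) and a log2 fold change of 0.33. Ccdc113, a protein of the axoneme and of the ciliary base, had 0.468 to 1.53 CPM in MRL/lpr and 0.740 to 1.73 CPM in MRL/mpj.

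The tektins are filaments inside the doublet microtubules, and 0 of the 3 passed in edgeR or DESeq2, where 1, Tekt1, had an unadjusted p under 0.05 in either tool. Tekt1 had 1.25, 1.78 and 1.56 CPM in MRL/lpr and 2.59, 1.94 and 2.96 CPM in MRL/mpj, which did not overlap, but did not pass (log2 fold change -0.70 ± 0.30, SE, edgeR adjusted p = 0.137). Tekt2 and Tekt4 had overlapping strains and log2 fold changes of -0.64 and -0.67. Gm12945 covers 20.8% of the exonic bases of Tekt2 on the opposite strand. Tekt4 rested on 8 to 27 counts per library, and its interval from -2.28 to 0.93 excluded neither a halving nor the absence of a difference.

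The radial spokes and the central apparatus gave the next calls. Rsph1 (chr17:31255019-31277383) had 6.00, 5.12 and 3.52 CPM in MRL/lpr, from 282, 241 and 147 counts, and 13.7, 11.9 and 12.8 CPM in MRL/mpj, from 703, 595 and 664 counts. The strains were widely separated, and Rsph1 was 2.62-fold lower in MRL/lpr at a log2 fold change of -1.39 ± 0.20 (SE, n = 3 per strain, edgeR adjusted p = 0.00119). It passed in all 14 alternative analyses and overlaps no other gene.

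The other spoke head proteins, Rsph4a and Rsph9, did not pass. Rsph4a had 3.79, 4.50 and 3.54 CPM in MRL/lpr and 6.30, 4.58 and 4.84 CPM in MRL/mpj, a log2 fold change of -0.41 ± 0.21 (SE, edgeR adjusted p = 0.228) without overlap. Rsph9 was at 1.91 ± 0.37 CPM in MRL/lpr and 1.82 ± 0.44 CPM in MRL/mpj (mean ± SD, n = 3 per strain), and its interval ran from -0.63 to 0.78. The interval of Rsph1, from -1.85 to -0.93, did not overlap that of Rsph9, and the difference between genes was not tested.

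Spag6l, Spag16, Spag17, Hydin and Cfap54 belong to the central apparatus. Spag6l (chr16:16753016-16829456) had 1.28, 2.12 and 2.15 CPM in MRL/lpr and 4.61, 2.60 and 4.13 CPM in MRL/mpj, without overlap. It was 2.04-fold lower in MRL/lpr (log2 fold change -1.03 ± 0.32, SE, edgeR adjusted p = 0.0489). This value is close to the threshold: of the 6 analyses that left out a library, the call held only without MRL/mpj replicate 2 (adjusted p = 0.0362), and the others gave 0.136 without MRL/lpr replicate 1, 0.0792 without MRL/lpr replicate 2, 0.0597 without MRL/lpr replicate 3, 0.169 without MRL/mpj replicate 1 and 0.140 without MRL/mpj replicate 3.

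Spag16 lay just past the threshold on the other side. It had 0.723, 1.08 and 1.46 CPM in MRL/lpr and 2.04, 2.38 and 2.52 CPM in MRL/mpj, with no overlap and a log2 fold change of -1.09 ± 0.34 (SE, edgeR adjusted p = 0.0519), and it passed in 5 of the 14 alternatives. Hydin, a projection of the central pair, had a log2 fold change of -0.17, Cfap54 of -0.25 and Spag17 of 0.21, all with overlapping strains. For Spag17, opposite-strand genes cover 15.7% of the exonic bases.

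**Figure D3:**
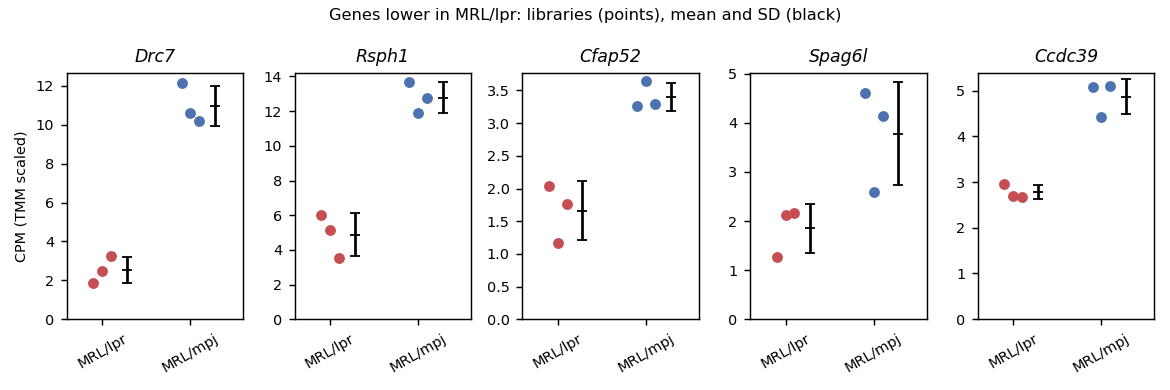
CPM (TMM scaled) of the 5 members that were lower in MRL/lpr at an adjusted p under 0.05, with 1 point per library and the mean and SD of each strain in black (n = 3 per strain). No MRL/lpr point reaches an MRL/mpj point in any of the 5 genes, and the gap is widest in Drc7, at a mean of 2.52 against 11.0 CPM.

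Among the other cilia and flagella associated proteins, Cfap52 (chr11:67924806-67965651), an inner protein of the doublet microtubules, had 2.04, 1.17 and 1.77 CPM in MRL/lpr and 3.27, 3.64 and 3.29 CPM in MRL/mpj, without overlap. It was 2.05-fold lower in MRL/lpr (log2 fold change -1.03 ± 0.28, SE, edgeR adjusted p = 0.0286). The call was lost without MRL/lpr replicate 2 (adjusted p = 0.0764) and without MRL/mpj replicates 1 (0.0719), 2 (0.0948) or 3 (0.0728). An opposite-strand transcript, 9130017K11Rik, covers 8.36% of its exonic bases.

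Cfap65, a protein best known from the sperm flagellum, had 8.38, 6.50 and 6.94 CPM in MRL/lpr and 10.4, 9.52 and 10.9 CPM in MRL/mpj, at a log2 fold change of -0.50 ± 0.16 (SE, edgeR adjusted p = 0.0528). Cfap44, which tethers inner dynein arms, had 7.81, 6.42 and 5.48 CPM in MRL/lpr and 8.79, 9.20 and 9.65 CPM in MRL/mpj, at -0.49 ± 0.17 (SE, edgeR adjusted p = 0.0806). In both genes the strains did not overlap but the test was not passed. Cfap43, the partner of Cfap44, and Cfap126 had overlapping strains and log2 fold changes of -0.17 and -0.56.

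Tmem212 showed no difference that passed the test, at 2.25, 3.63 and 2.37 CPM in MRL/lpr and 2.04, 2.90 and 2.46 CPM in MRL/mpj. The strains overlapped and the interval ran from -0.49 to 0.80, which excludes a halving and a doubling.

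Summed over the 38 members, the MRL/lpr libraries held 146, 154 and 149 CPM and the MRL/mpj libraries 179, 177 and 179 CPM, so MRL/lpr stood at 83.9% of MRL/mpj. Without Drc7 and Rsph1 the sums were 138, 146 and 142 against 153, 155 and 156 CPM, or 92.1%. These 2 genes were set aside after their values were seen and no test was made. By role, the sums in MRL/lpr were 61.8% of MRL/mpj for the ruler and regulatory complex genes, 62.4% for the tektins, 64.0% for the spokes and central apparatus, 71.9% for the other associated proteins and 112% for the regulators. Without Drc7 the 5 other ruler and regulatory complex genes stood at 88.9%, and without Rsph1 the 7 other spoke and central apparatus genes stood at 77.5%, with sums that overlapped between the strains in both cases. Across the 37 members the log2 fold change had a correlation of 0.303 with the log10 of exonic length and of 0.0988 with the log10 of mean CPM. These are descriptions over genes that share the same 6 libraries. The 18 members with under 7311 exonic bases had a median log2 fold change of -0.56, and the 19 at or above that length one of -0.11.

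Other motile cilia genes were read out from a list of 94 symbols, of which 92 were matched and 87 tested. Of these, 8 were lower and 2 higher, with a median log2 fold change of -0.33, beside 9.06% and 11.1% of all genes. The lower genes of this list numbered 2 without MRL/mpj replicate 3, 4 without MRL/mpj replicate 1 and 5 without MRL/mpj replicate 2. Rsph10b, a further spoke protein, was lower by -2.28 ± 0.29 (log2 fold change ± SE, edgeR adjusted p = 0.000497), with 1.67 ± 0.69 CPM in MRL/lpr and 8.11 ± 0.93 CPM in MRL/mpj (mean ± SD, n = 3 per strain). Iqcg, a regulatory complex subunit like Drc7, was at 4.11 ± 2.19 against 19.5 ± 3.67 CPM (mean ± SD, n = 3 per strain). Dynlrb2, a dynein light chain, and Lrriq1 were also lower, at log2 fold changes of -1.83 and -1.22. The genes that were higher were Dnah8, an outer arm heavy chain known mainly from sperm, at a log2 fold change of 1.71, and Dlec1 at 0.80. The most abundant genes of the list that did not pass were Cfap20 at -0.43, Rsph3a at -0.47 and Gas8 at -0.19, with adjusted p-values of 0.0557, 0.0501 and 0.512 (edgeR).

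Genes upstream of and beside the axoneme did not all follow one direction. A list drawn up for the multiciliated cell programme, with general centriole genes and further Rfx factors, held 18 tested genes outside the members. Of these, 3 were higher: Stil at a log2 fold change of 2.01, Cep152 at 0.73 and Rfx5 at 0.42. In the other direction 1 was lower, Cep63 at -0.32. Among all genes tested, 11.1% were higher and 9.06% were lower. The abundant E2f4 and Rfx7 did not pass, at 0.12 and 0.05. Further genes of this list were named after their values were seen, and they did not pass either. Gmnc had -2.72, Trp73 -1.07, Deup1 -0.72 and Ccno -0.30, whereas Myb had 0.52 and Ccdc78 0.30. Plk4 had 0.80, Rfx4 0.69, Tfdp1 0.37, Sass6 0.21, Rfx1 0.17 and E2f5 0.13. Of the 18 genes, 5 had a log2 fold change below 0 and 13 above 0, with a median of 0.19. Stil and Cep152 act in centriole duplication in all dividing cells, and Rfx5 was listed only as a further Rfx factor. The 3 higher genes are therefore not particular to multiciliated cells. Of 51 intraflagellar transport and primary cilium genes, 11 were lower (21.6%) and 2 higher, beside 9.06% and 11.1% of all genes. Their median log2 fold change was -0.27, with 42 genes below 0 and 9 above 0. The lower genes included Dync2li1, a light intermediate chain of the transport dynein, at -1.31, Bbs9 at -0.67 and Wdr19 at -0.54. The list's abundant genes Ift172 and Ift140 had overlapping strains at 0.05 and 0.11. Ttc30b, at 0.84, and Bbs2, at 0.44 and named after its value was seen, were higher. Of 17 cytoplasmic dynein and dynactin genes, 0 passed in either direction by edgeR or DESeq2 and 1 was higher at an unadjusted p under 0.05 in either tool. Dync1h1, the cytoplasmic heavy chain, had a log2 fold change of 0.15 ± 0.13 (SE, edgeR adjusted p = 0.489).

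Some other genes of the cells that bear motile cilia also differed between the strains. The share that was lower was 22.7% of the ependymal list and 75.0% of the choroid plexus list. Among all genes tested, 9.06% were lower and 11.1% were higher. The ependymal list was mixed in direction, with 13 log2 fold changes below 0, 9 above 0 and a median of -0.36. In the choroid plexus list 19 were below 0 and 1 above 0. Of 22 tested ependymal genes outside the axoneme, 5 were lower (Sspo, which encodes the secreted protein of Reissner's fibre, at a log2 fold change of -6.15, Fabp7 at -2.11, Calml4 at -1.26, Clu at -0.69 and Ntrk2 at -0.40), 1 was higher (Hspa2 at 0.41), and Vim and Slc16a1 had values of 0.04 and 0.11. Their summed level was 477 to 492 CPM in MRL/lpr and 548 to 559 CPM in MRL/mpj, and Scgb1c1 was at 0 in every library. A few genes weigh heavily in this sum. Mean CPM in MRL/lpr and MRL/mpj were 149 and 138 for Slc16a1, 109 and 106 for Vim, 65.7 and 106 for Clu, and 0.480 and 34.5 for Sspo. Calml4 is also in the choroid plexus list, and some of these genes are also in the astrocyte list. Of 20 choroid plexus genes, 15 were lower, among them Ttr at -1.64, Kcne2 at -2.54 and Kl at -1.40, and 1, Wfikkn2, named after its value was seen, was higher at 2.05. The choroid plexus sum was 666 to 679 CPM in MRL/lpr against 2118 to 2285 CPM in MRL/mpj, or 30.8%, where the members stood at 83.9%. Most of the choroid plexus sum came from Ttr and Enpp2. Their mean CPM in MRL/lpr and MRL/mpj were 302 and 942 for Ttr and 218 and 876 for Enpp2. The part of either cell type in the members' differences was not tested.

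Lists of other brain cells are given beside them. The share that was lower was 26.7% for neuronal, 30.8% for oligodendrocyte and 13.3% for astrocyte genes. It was 33.3% for endothelial and pericyte genes and 26.7% for microglial genes. Among all genes tested, 9.06% were lower and 11.1% were higher. The median log2 fold changes were -1.20 for neuronal, -1.22 for oligodendrocyte, -0.15 for astrocyte, -0.04 for endothelial and pericyte and -0.05 for microglial genes. All 15 neuronal genes lay below 0, as did 11 of the 13 oligodendrocyte genes. Of 15 neuronal genes 4 were lower (Snap25, Syt1, Syn1 and Nefh), with sums of 36.2 to 42.7 CPM in MRL/lpr and 61.8 to 72.8 CPM in MRL/mpj. Of 13 oligodendrocyte genes 4 were lower, with sums of 140 to 166 against 189 to 222 CPM. Of 15 astrocyte genes 2 were lower (Slc1a3 and Atp1b2), with sums of 263 to 314 against 352 to 370 CPM. Of 15 endothelial and pericyte genes 5 were lower (Emcn, Vtn, Pdgfrb, Tek and Egfl7) and 2 higher (Flt1 and Ly6c1), with sums of 2458 to 2654 against 2432 to 2496 CPM, and Egfl7 and Ly6c1 were named after their values were seen. Of 15 microglial genes 4 were lower, with sums of 27604 to 31163 against 31972 to 32909 CPM. Among these lists no gene was at 0 in every library, and their part in the members' differences was not tested.

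**Figure D4:**
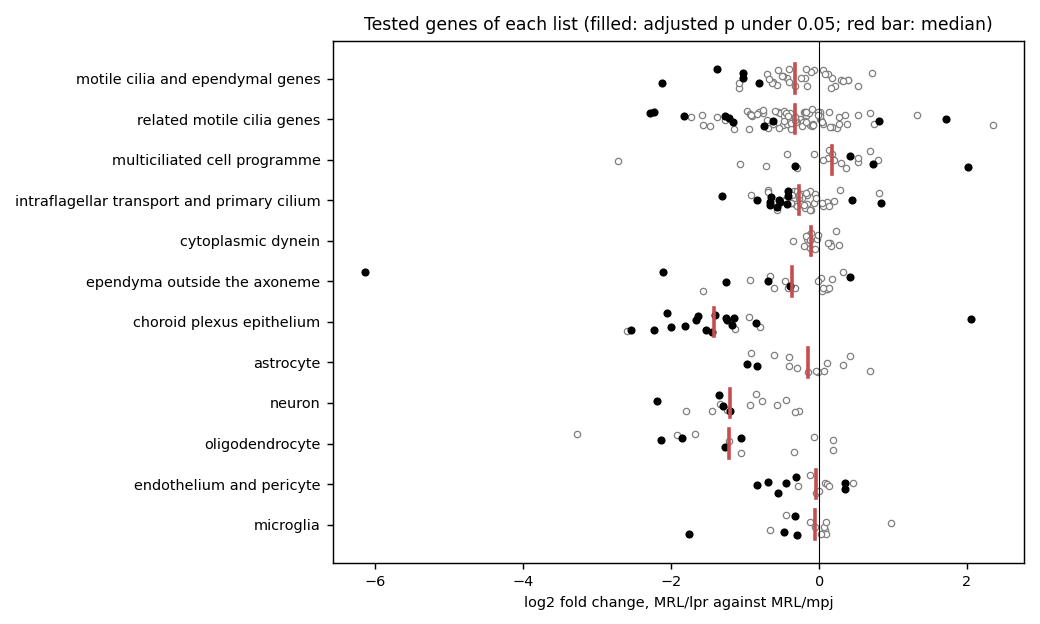
Log2 fold change of every tested gene of each list, MRL/lpr against MRL/mpj (filled points: adjusted p under 0.05, red bars: list medians). The medians of the members and of the related motile cilia genes both lie at -0.33. Those of the choroid plexus, oligodendrocyte and neuronal genes lie at -1.43, -1.22 and -1.20.

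**Figure D5:**
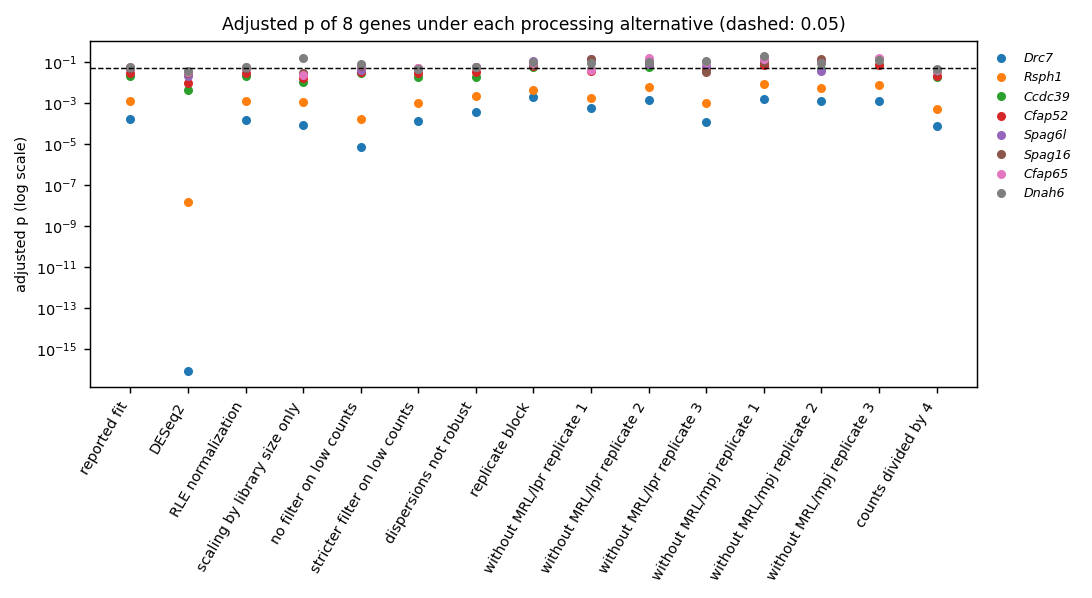
Adjusted p (log scale) of 8 members in the reported analysis and in each of the 14 alternatives, with the threshold of 0.05 dashed. Drc7 and Rsph1 stay below the line throughout, and the 6 other genes cross it in at least 1 setting.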

How the data were processed

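Microglial RNA of 3 MRL/lpr and 3 MRL/mpj preparations was sequenced as paired reads. The labels describe removal of ribosomal RNA and a stranded kit, whereas the study's methods describe purification of mRNA. The submitters' processing notes name cutadapt 1.9.3, HISAT2 2.0.4, Cufflinks, Cuffdiff 2.2.1 and GRCm38. The counting tool and its strand setting were not given in the sources used here, so reads of genes that overlap on opposite strands may not be told apart. The raw counts per gene that the authors deposited are whole numbers and not normalized. The deposited FPKM values were used only as levels per length. Counts of 4 were more frequent (1138 to 1288 genes per library) than counts of 3 (320 to 415) or 5 (211 to 261), so counts divided by 4 were an alternative. Symbols, exons and coordinates were taken from GENCODE M21 (GRCm38), where 55141 of 55401 identifiers were found. The 260 others held 8124 to 16804 counts per library.

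Counts were fitted in edgeR 4.0.16 (R 4.3.3) with filterByExpr (minimum count 10, minimum total 15), TMM, robust dispersions and the quasi-likelihood test without covariates, with Benjamini-Hochberg adjustment over all genes tested. The biological coefficient of variation common to all genes was 0.26. A call needed an adjusted p-value under 0.05 and, where said, a log2 fold change of 1 or more in size. With 3 libraries against 3, an exact permutation test cannot reach a p below 0.1. Steps were tested on simulated data. Replicates differed by more than the sampling noise of the counts. Alternatives were DESeq2 1.42.0, RLE normalization, scaling by library size, no filter, a filter of 40 counts in 3 libraries, dispersions that are not robust, a replicate block, counts divided by 4, and each library left out. Every member is named. Outside the members, genes are named only if they were among the 5 of their list with the highest mean CPM or the 5 with the smallest adjusted p under 0.05, apart from those said to be named after their values were seen. The members and lists were chosen with earlier results of these data known. Some genes of the cell type lists are not reported here.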

Additional observations from a re-analysis of the deposited data

How the results depend on the processing

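Drc7 and Rsph1 passed in 14 of 14 alternatives, Ccdc39 in 10, Cfap52 in 9 and Spag6l in 7. The count of lower members, 5 as reported, was 8 with scaling by library size, where 14.3% of all genes were lower (9.06% as reported), and the count of higher members, 0 as reported, was 1 (Dnah6) with DESeq2, with the stricter filter and with counts divided by 4. Same-numbered libraries of the strains did not deviate together (correlations of -0.0409, -0.0202 and -0.0325). Such values over all genes cannot show whether same-numbered libraries were prepared together, so a pairing is not excluded. With the replicate block 2 members were lower, 2 were called (4 as reported) and 1 related motile cilia gene was higher (2 as reported). With 1 library left out, the lower members ranged from 2 to 6, the called members from 2 to 5, the related motile cilia genes from 2 to 8 lower and from 1 to 2 higher, and the members' median log2 fold change from -0.43 to -0.13. Leaving out MRL/lpr replicate 1 gave a median of -0.14, and leaving out MRL/mpj replicate 3 gave -0.13. The lower members were 2 without MRL/lpr replicate 2, MRL/mpj replicate 1 or MRL/mpj replicate 3, and 6 without MRL/lpr replicate 1 or MRL/lpr replicate 3. The cause of these changes was not tested.

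Of the 37 tested members, 28 kept the sign of their log2 fold change in each alternative (21 below 0 and 7 above 0). The 9 others had small values. Scaling by library size turned Dnah1 to -0.067, Rsph9 to -0.053 and Dnah9 to -0.0048, and the block turned Dnah1 to -0.061. With 1 library left out the values ran from -0.41 to 0.38 for Dnah1, from -0.042 to 0.28 for Rsph9, from -0.056 to 0.35 for Dnah9, from -0.10 to 0.29 for Tmem212, from -0.11 to 0.46 for Spag17, from -0.63 to 0.040 for Ccdc113, from -0.39 to 0.056 for Dnah10, from -0.25 to 0.12 for Rfx2 and from -0.26 to 0.015 for Dnah5. Tekt4 could not be tested under the stricter filter or with counts divided by 4. The low counts limit the precision for Tekt4, Dnah7b, Ccdc113 and Tekt2.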
